A study of Mus musculus with 48 samples.

Results

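The RNAs described here were 8 long noncoding RNAs known to stay largely in the nucleus: Malat1, Neat1, Miat, Meg3, Rian, Mirg, Kcnq1ot1 and Snhg11. They were matched by gene symbol, from a list drawn up with earlier results of these data known, among the 47643 genes counted in every library, and each of the 8 matched 1 Ensembl identifier. The counts came from translating ribosome affinity purification (TRAP) of dorsal hippocampus of Tg(Aldh1l1-eGFP/Rpl10a) JD130Htz mice. In this strain an astrocyte promoter, Aldh1l1, drives a ribosomal protein fused to eGFP, and an antibody to GFP pulls down tagged ribosomes with the RNA held on them. Full astrocytes (Astro) were set against perisynaptic astrocytic processes (PAP), the fine branches of the astrocyte that wrap synapses. All animals carried the transgene, no treatment is labelled, and age and sex are not given in the sources used here. Per the labels' protocols, the pulldown was done on cytosolic extracts that had passed an antibody-free column and a column of unspecific mouse antibodies. The 3 animals were each sampled for Astro and for PAP, and the 8 technical replicates of every such sample were summed, so that n = 3 pooled libraries a group.

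A ribosome pulldown is meant to recover RNA in translation, whereas these 8 RNAs are best known for acting inside the nucleus without being translated into a functional protein. Malat1 sits in nuclear speckles, where splicing factors are stored. Neat1 is the scaffold of paraspeckles, bodies beside the speckles that hold RNA and RNA-binding proteins. Miat, also called Gomafu, forms its own spots in the nuclei of neurons and carries repeats that bind splicing factors. Meg3, Rian and Mirg are transcribed from the maternal chromosome of the imprinted Dlk1-Dio3 domain, Rian as a host of box C/D snoRNAs and Mirg as a host of microRNAs. Kcnq1ot1 is transcribed from the paternal chromosome, antisense within Kcnq1, and silences neighbouring genes in cis. Snhg11 is a host transcript of snoRNAs and, like Meg3, Miat, Rian and Mirg, is known in brain mainly from neurons. The counts do not locate an RNA within the cell, and neither untagged tissue nor total input RNA was analysed here, so how much of each count came from RNA off the ribosome was not measured. In bulk libraries of this kind, fewer cells of a type and less RNA per cell cannot be told apart.

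Sequence features of these RNAs may bear on how they can be captured and counted, and the stretches that carry them are given from the GENCODE M21 transcripts on GRCm38 (mm10), 5′ to 3′. Malat1 and the long form of Neat1 do not end in an ordinary poly(A) tail. Their 3′ ends are cut at a tRNA-like structure and are protected by a triple helix between U-rich stretches and a tract of A. In the following lines, which show chr19:5795982-5796079 in Malat1 and chr19:5824708-5824798 in Neat1, both on the minus strand, the capitals at the end mark that A-rich tract.
Malat1: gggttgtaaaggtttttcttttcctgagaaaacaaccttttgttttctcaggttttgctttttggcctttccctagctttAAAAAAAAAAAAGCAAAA
Neat1: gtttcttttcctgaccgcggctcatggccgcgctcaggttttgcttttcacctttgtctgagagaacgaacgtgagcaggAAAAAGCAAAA
The Neat1 transcript ended in the letters AAAAAGCAAAA, and the Malat1 line was cut where these letters end, at base 6691 of 6983. The letters were taken from the end of Neat1, so their presence in Neat1 follows from the choice. They were also found on the transcript strand of the longest transcript of Malat1 and Snhg11. Of 14566 tested genes 1.112% held them, or 3.136% of the 1913 tested genes with a transcript of at least 6000 bases.

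Runs of A inside a transcript could matter because the low-input kit named in the labels starts its first strand on A, but whether they did here was not tested. A run of at least 10 A was found in the longest transcript of 4 of the 8 RNAs, Malat1, Meg3, Rian and Kcnq1ot1, and in 18.935% of tested genes, or 42.708% of those with a transcript of at least 6000 bases. Kcnq1ot1, a single exon of 93092 bases, held 10 such runs, the longest of 41 A, shown in capitals within the stretch chr7:143226915-143227015 on the minus strand.
Kcnq1ot1: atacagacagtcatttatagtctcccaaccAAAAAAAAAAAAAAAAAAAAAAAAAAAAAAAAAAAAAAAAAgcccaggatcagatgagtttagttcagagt
Meg3 held 6 runs, the longest of 16 A, Rian 1 run of 15 and Malat1 1 run of 12, while Neat1, Miat, Mirg and Snhg11 held none. Miat is the RNA with the TACTAAC repeats (capitals below), the letters of the branch-point sequence to which the splicing factor Sf1 binds.
Miat: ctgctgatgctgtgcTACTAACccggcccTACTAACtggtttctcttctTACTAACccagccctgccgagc
The motif stood 6 times on the transcript strand of the longest Miat transcript, between positions 4941 and 5623 of 9163, and Miat was the 1 gene of 14566 tested with 6 copies or more, while 7.875% of tested genes, or 18.923% of those with a transcript of at least 6000 bases, held at least 1 copy. Kcnq1ot1 held 4 copies and Neat1 held 1.

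The Astro libraries held 18707844 to 20293538 counts and the PAP libraries 1829962 to 2980984, so depth and compartment cannot be told apart at full depth. Levels are given as CPM, a gene's counts scaled to a common library total, further scaled by TMM factors, which correct for differences in library makeup. A count of 0 allows a level of up to 3 counts, which was 0.151 to 0.175 CPM in Astro and 0.987 to 1.54 CPM in PAP. PAP libraries of different animals were less alike than Astro libraries, with a biological coefficient of variation of 1.609 in PAP and 0.335 in Astro. PAP was compared with Astro by the edgeR quasi-likelihood test over 14618 genes with Benjamini-Hochberg adjustment, and a gene is said to have risen or fallen where the adjusted p was under 0.05. The labels number 3 animals and give no further detail of them, and the p-values measure the spread between their libraries only. Since each animal gave 1 library of each compartment, differences between animals and between preparations cannot be told apart in that spread.

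The nuclear-body RNAs Malat1, Neat1 and Miat, the imprinted RNA Meg3 and the snoRNA host Snhg11 rose in PAP, by 8.79-fold to 54.1-fold, and Rian did not pass. Mirg and Kcnq1ot1 did not enter the test, since too few libraries reached the minimum level of the filter. Thus 5 of the 6 tested members rose and 0 fell, where 5.92% of all tested genes rose and 15.4% fell, and the members' median log2 fold change was 4.23 against -0.53 for all tested genes. With the animal as a block 3 of the 6 rose, Malat1, Meg3 and Snhg11, where 0.876% of all tested genes rose, and the medians were 4.04 for the members and -1.63 for all tested genes. The 3 libraries of PAP lay above the 3 of Astro in all 6 tested members, where 10.9% of all tested genes had this order. Without Astro animal 1, and likewise without Astro animal 2, 1 member rose (Meg3), and without Astro animal 3, 2 rose (Meg3 and Snhg11), while the number of all tested genes that rose went from 865 to 114, 123 and 135 in these fits. Without each PAP library in turn the same 5 of the 6 rose. Without PAP animal 3 the fit also called Mirg and Kcnq1ot1, which then passed the filter through their PAP counts, so they are no added support.

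**Figure D1:**
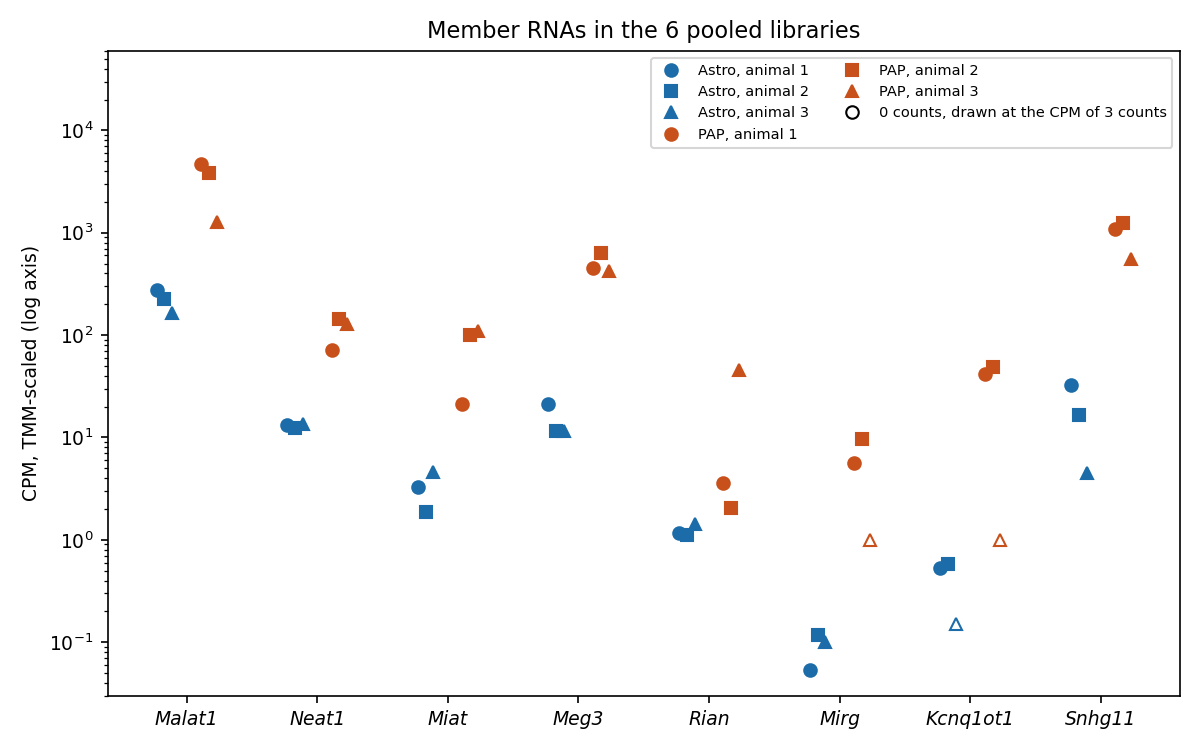
TMM-scaled CPM (log axis) of the 8 RNAs in the 6 pooled libraries, Astro in blue and PAP in orange, with a marker shape for each animal; open markers are libraries with 0 counts, drawn at the CPM of 3 counts. PAP libraries lie above Astro libraries in Malat1, Neat1, Miat, Meg3, Rian and Snhg11, and PAP animal 3 has 0 counts of Mirg and Kcnq1ot1.

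Malat1 (ENSMUSG00000092341, lincRNA, chr19:5795690-5802672, minus strand, 6983 exonic bases) is the speckle RNA and had the most counts of the 8 in every library. Astro libraries of animals 1 to 3 held 5131, 3855 and 3236 counts of Malat1, or 274.3, 225.1 and 163.5 CPM. The PAP libraries held 9167, 7534 and 3880 counts, or 4654, 3864 and 1276 CPM. PAP animal 3 was the lowest of its group, yet above every Astro library. From 221 ± 55.5 CPM in Astro to 3265 ± 1767 in PAP (SD, n = 3), the log2 fold change of Malat1 was 3.89 ± 0.54 (SE, edgeR adjusted p = 0.0168), 14.8-fold. The animals' own log2 ratios were 4.08, 4.10 and 2.96. Technical replicates 1 to 4 and 5 to 8 of PAP animal 1, the pair farthest apart, gave 4720 and 5340 CPM of Malat1 without TMM factors, a smaller gap than between animals. By mean CPM Malat1 ranked 870 among all genes in Astro and 13 in PAP. The call held with the block (3.72, edgeR adjusted p = 0.0204) and was lost without any 1 of the Astro libraries, where the edgeR adjusted p of Malat1 ran from 0.0672 to 0.0864.

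Neat1 (ENSMUSG00000092274, lincRNA, chr19:5824708-5845478, minus strand, 20771 exonic bases) is the paraspeckle scaffold, transcribed from a gene near Malat1. Its counts were 250, 214 and 267 in Astro and 142, 282 and 394 in PAP, so that PAP animals 2 and 3 held more Neat1 reads than any Astro library in spite of their smaller totals. Neat1 stood at 13.4, 12.5 and 13.5 CPM in Astro and at 72.1, 145 and 130 CPM in PAP. Its Astro libraries were the closest together of any member, with a highest level 1.08 times the lowest, and PAP animal 1 was the low PAP library. The log2 fold change of Neat1 was 3.14 ± 0.55 (SE, edgeR adjusted p = 0.0208), 8.79-fold, and the animals' ratios were 2.43, 3.53 and 3.26. With the animal as a block it was 3.08 and did not pass (edgeR adjusted p = 0.206), and without any 1 Astro library its edgeR adjusted p ran from 0.0773 to 0.0891.

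Miat (ENSMUSG00000097767, lincRNA, chr5:112213228-112229395, minus strand, 9293 exonic bases) carries the TACTAAC repeats printed above. It was counted 62, 32 and 91 times in Astro and 42, 196 and 336 times in PAP. The levels of Miat were 3.31, 1.87 and 4.60 CPM in Astro and 21.3, 101 and 111 CPM in PAP, with PAP animal 1 again the lowest of its group and above every Astro library. Its log2 fold change was 4.57 ± 0.95 (SE, edgeR adjusted p = 0.0211), 23.7-fold, with animals' ratios of 2.69, 5.75 and 4.59. The block gave 4.36 (edgeR adjusted p = 0.206), and the fits without 1 Astro library gave edgeR adjusted p-values of 0.0909 to 0.108 for Miat. A lincRNA on the opposite strand, Gm26953, shares 24.3% of the exonic bases of Miat and held 3, 1 and 13 counts in Astro and 0, 0 and 43 in PAP, so in PAP animal 3 some Miat counts could belong to it.

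Meg3 (ENSMUSG00000021268, lincRNA, chr12:109541001-109571726, plus strand, 18089 exonic bases) opens the maternally expressed string of noncoding RNAs in the Dlk1-Dio3 domain. Astro libraries held 394, 199 and 230 counts of Meg3 and PAP libraries 893, 1234 and 1292, so that every PAP library had more Meg3 reads than any Astro library although the Astro totals were several times larger. In CPM, Meg3 stood at 21.1, 11.6 and 11.6 in Astro and at 453, 633 and 425 in PAP. The groups were far apart and the PAP libraries closer to one another than for Malat1. The log2 fold change of Meg3, from 14.8 ± 5.45 to 504 ± 113 CPM (SD, n = 3), was 5.09 ± 0.43 (SE, edgeR adjusted p = 0.0029), 34.1-fold. Animals' ratios were 4.43, 5.77 and 5.19, and the rank of Meg3 among all genes by mean CPM was 8489 in Astro and 235 in PAP. Meg3 passed with the block (5.13, edgeR adjusted p = 0.0204) and without each library in turn (edgeR adjusted p from 0.00763 to 0.0336), and was the 1 member with an adjusted p under 0.01.

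Rian (ENSMUSG00000097451, processed transcript, chr12:109603940-109661716, plus strand, 18234 exonic bases), the snoRNA host downstream of Meg3, differed between animals. Its counts were 22, 19 and 28 in Astro and 7, 4 and 138 in PAP. Rian stood at 1.18, 1.11 and 1.41 CPM in Astro and at 3.55, 2.05 and 45.4 CPM in PAP, so 1 PAP library, animal 3, held nearly all PAP reads. The fitted log2 fold change of Rian was 3.78 ± 1.44 (SE, edgeR adjusted p = 0.129) and the estimate was 1.11 without PAP animal 3 (edgeR adjusted p = 0.212). It passed with the DESeq2 Wald test (3.82, adjusted p = 0.00509) and in no other of the fits that included it. The animals' log2 ratios of Rian were 1.60, 0.89 and 5.00.

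Mirg (ENSMUSG00000097391, lincRNA, chr12:109729764-109749460, plus strand, 7292 exonic bases), the microRNA host at the far end of the domain, was counted 1, 2 and 2 times in Astro and 11, 19 and 0 times in PAP. PAP animal 3, the library with the most Rian, held 0 counts of Mirg, which allows up to 0.987 CPM. Summed over animals, the ratio of PAP to Astro counts per total was 52.8 for Mirg, with a 95% interval of 20.3 to 174 (exact conditional binomial, counting error only), and it was 106 over animals 1 and 2, with a lower bound of 33.1. These intervals do not cover the spread between animals, so they are no test of the compartments.

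Kcnq1ot1 (ENSMUSG00000101609, antisense, chr7:143203458-143296549, minus strand) had 10, 10 and 0 counts in Astro and 82, 95 and 0 in PAP. Animals 1 and 2 thus had Kcnq1ot1 counts in both compartments, and animal 3 had 0 counts in both, allowing up to 0.151 CPM in Astro and 0.987 CPM in PAP. The ratio of summed counts per total was 94.2 over animals 1 and 2, with a counting interval of 59.2 to 158, and 77.9 (49.0 to 131) over all animals. Fits that left out a PAP library and kept Mirg or Kcnq1ot1 did so through their PAP counts, so they are no test of these RNAs. Kcnq1, the potassium channel gene on the other strand, held 11, 0 and 0 counts in Astro and 0 in each PAP library. The longest run of A in Kcnq1ot1, printed above, is 1 of 10, and which part of the transcript the reads fell on was not given by the counts.

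Snhg11 (ENSMUSG00000044349, chr2:158375638-158386145, plus strand, 8521 exonic bases) is annotated as protein coding in GENCODE M21 although it is known as a snoRNA host, and it belongs also to the snoRNA host genes. It was counted 606, 283 and 89 times in Astro and 2119, 2449 and 1699 times in PAP. The levels of Snhg11 were 32.4, 16.5 and 4.50 CPM in Astro and 1076, 1256 and 559 CPM in PAP, with animal 3 lowest in both compartments. The log2 fold change of Snhg11 was 5.76 ± 0.85 (SE, edgeR adjusted p = 0.0196), 54.1-fold, the highest estimate among the tested members, and its rank by mean CPM was 7784 in Astro and 95 in PAP. Animals' ratios were 5.05, 6.25 and 6.96. With the block it passed (6.09, edgeR adjusted p = 0.0163), and without Astro animal 1 or 2 it did not (0.0615 and 0.0864).

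**Figure D2:**
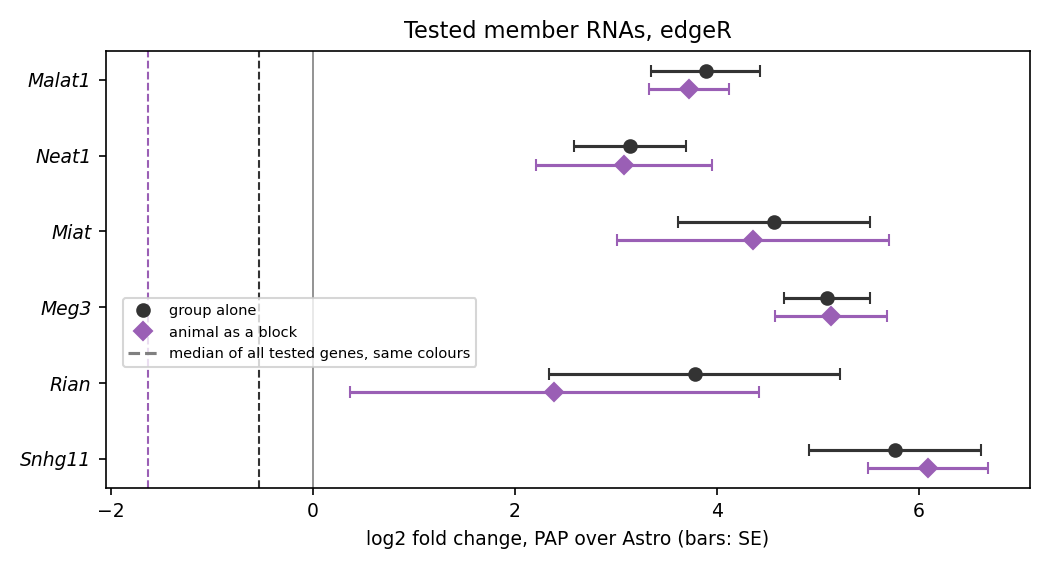
Log2 fold change of PAP over Astro with its SE for the 6 tested RNAs, from the edgeR fit of group alone (circles) and with the animal as a block (diamonds); dashed lines give the median of all tested genes in each fit, -0.53 and -1.63. All 6 estimates lie to the right of both medians, and Rian has the widest bars.

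Set side by side per length, as mean CPM per 1000 exonic bases, the order of the levels was nearly the same in both compartments. In Astro it ran from Malat1 at 31.6 through Snhg11 at 2.09, Meg3 at 0.816, Neat1 at 0.632, Miat at 0.351 and Rian at 0.0676 to Mirg at 0.0124 and Kcnq1ot1 at 0.0040. In PAP Malat1 stood at 467.5, Snhg11 at 113.1, Meg3 at 27.9, Miat at 8.33, Neat1 at 5.56, Rian at 0.932, Mirg at 0.701 and Kcnq1ot1 at 0.324. Miat and Neat1 thus stood in the opposite order in PAP, where the per-length levels of Miat overlapped those of Neat1 between animals. Of the other neighbours in these orders, Snhg11 and Meg3, and Meg3 and Neat1, overlapped in Astro, and Rian and Mirg, and Mirg and Kcnq1ot1, overlapped in PAP. The remaining neighbours did not overlap, although the order of Mirg and Kcnq1ot1 in Astro rests on 5 and 20 counts in all. Kcnq1ot1 was the lowest per length in both compartments although its summed counts in PAP exceeded those of Rian and Mirg, because its single exon is the longest.

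As a share of all counts, the 8 RNAs took 0.0319%, 0.0247% and 0.0202% in the Astro libraries of animals 1 to 3. In the PAP libraries they took 0.681%, 0.644% and 0.260%. Wilson 95% intervals, which cover counting error only, were 0.0311% to 0.0327% for Astro animal 1 and 0.254% to 0.266% for PAP animal 3, the highest Astro and the lowest PAP library. The means were 0.0256% ± 0.0059 and 0.528% ± 0.23 (SD, n = 3), a difference of 0.503 percentage points, and the groups did not overlap (two-sided exact permutation test, p = 0.1, the smallest that 20 relabellings allow). Malat1 made up 79.2%, 83.6% and 82.1% of the members' counts in Astro and 73.6%, 63.8% and 50.1% in PAP. Without Malat1 the difference was 0.176 percentage points, again with no overlap. Snhg11 made up 2.26% to 9.36% of the members' counts in Astro and 17.0% to 22.0% in PAP.

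**Figure D3:**
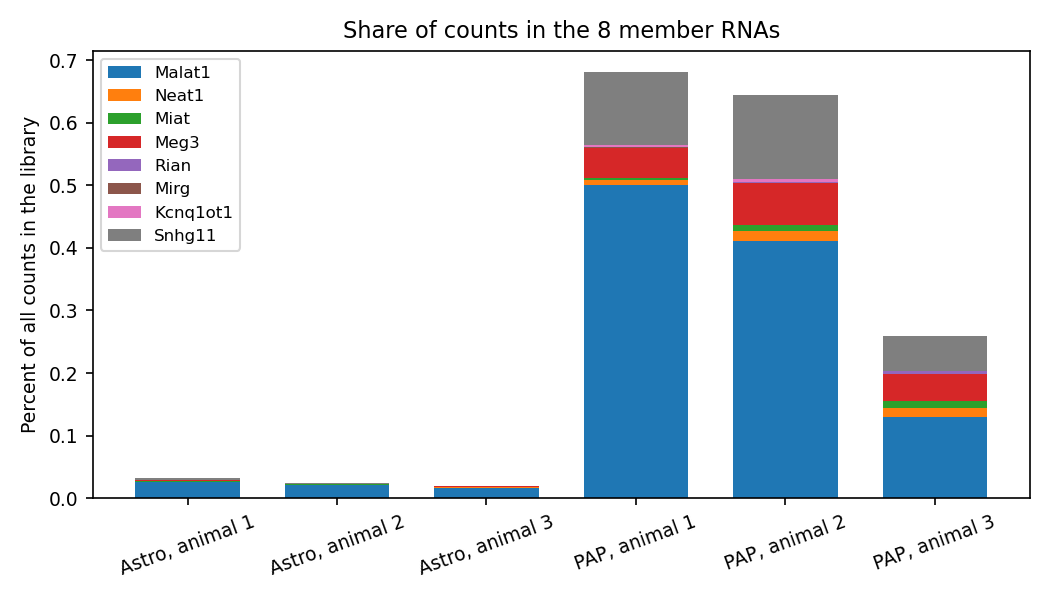
Percent of all counts in each pooled library that fell on the 8 RNAs, stacked by RNA. The PAP bars reach 0.681%, 0.644% and 0.260%, and the Astro bars are at or below 0.0319%; Malat1 is the largest part of each bar.

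Among 1282 tested long noncoding RNA genes, 4.13% rose and 22.0% fell, with a median log2 fold change of -0.77, where 5.92% and 15.4% of all tested genes did and their median was -0.53. With the block, 128 of all tested genes rose and 5 fell, so the excess of lower calls is that of the fit of group alone. PAP libraries are far shallower, and class genes that passed the low-count filter through Astro alone were not set apart. At equal depth, where fewer genes were tested, the lower calls over all genes went from 2250 to 1012. Depth and class thus cannot be told apart in the 22.0%. The class as a whole made up 2.14% of the Astro counts and 2.77% of the PAP counts, and without the members it took 2.11% and 2.34%, with overlapping groups (two-sided exact permutation test, p = 0.2). Gene models that lie in introns or are unconfirmed (TEC) took 0.159% in Astro and 0.391% in PAP, but 0.146% and 0.183% once Gm37376, which lies inside Malat1, was left out. Protein-coding genes took 97.1% and 94.6%, pseudogenes 0.187% and 0.548%, mitochondrial genes 0.0489% and 0.207%, and snoRNA, miRNA and snRNA genes 0.162% and 0.693%. Each of the 6 class shares gave an exact permutation p of 0.1, and 0.1 after Benjamini-Hochberg adjustment over them, the smallest possible.

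A gene model nested in a small part of Malat1 held many counts. Gm37376 is an unconfirmed gene model on the opposite strand that lies wholly inside Malat1, at chr19:5801941-5802393, and covers bases 280 to 732 of Malat1 from its 5′ start, 6.49% of its length. It held 3121, 2213 and 1855 counts in Astro and 5494, 4619 and 2158 in PAP. These equal 60.8%, 57.4% and 57.3% of the Malat1 counts in Astro and 59.9%, 61.3% and 55.6% in PAP, with overlapping groups. Its log2 fold change, 3.91 ± 0.58 (SE, edgeR adjusted p = 0.0199), was close to that of Malat1 and passed with the block (0.0235), but the 2 genes are not separate evidence if they share reads. Across the annotation, 199 of 200 genes nested in an exon of an opposite-strand host and holding at least 10 counts had no more counts than the host, as had 156 of 157 nested on the same strand. Whether one read was counted for both genes, and whether strand was used, is not given in the sources used here, and Malat1 and Gm37376 cannot be told apart by these counts.

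The window is followed by A-rich sequence. The 200 bases of Malat1 just after it were 50.5% A, above 99.7% of all spans of that size in Malat1, where the highest had 52.5%, while the window was 31.8% A and the whole transcript 28.6%. Its first 150 bases, at chr19:5801791-5801940 on the minus strand, are printed with runs of at least 4 A in capitals.
Malat1: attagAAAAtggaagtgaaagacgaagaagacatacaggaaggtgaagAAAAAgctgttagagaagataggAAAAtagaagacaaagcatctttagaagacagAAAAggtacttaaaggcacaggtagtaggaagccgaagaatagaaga
A match of composition and counts is a description, and whether the counts started from this stretch was not tested.

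Neat1 differed from Malat1 in this respect. Gene models Gm28006, Gm27505 and Gm27533 lie 442 to 1193 bases from its 5′ start, in the part shared by its short and long forms. They cover 384 bases, 1.85% of its 20771 exonic bases, the length of the long form. What share of the short form they cover was not computed, so 1.85% is no expected share where the short form was counted. Together they held 44, 27 and 31 counts in Astro, or 17.6%, 12.6% and 11.6% of the Neat1 counts. In PAP they held 0, 15 and 18, or 0%, 5.32% and 4.57%, with no overlap between the groups; the count of 0 among 142 in PAP animal 1 allows a share of up to 2.11%. The Neat1 windows were thus a smaller share of Neat1 in each PAP library than in any Astro library, a pattern seen after the counts were in view and not tested.

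**Figure D4:**
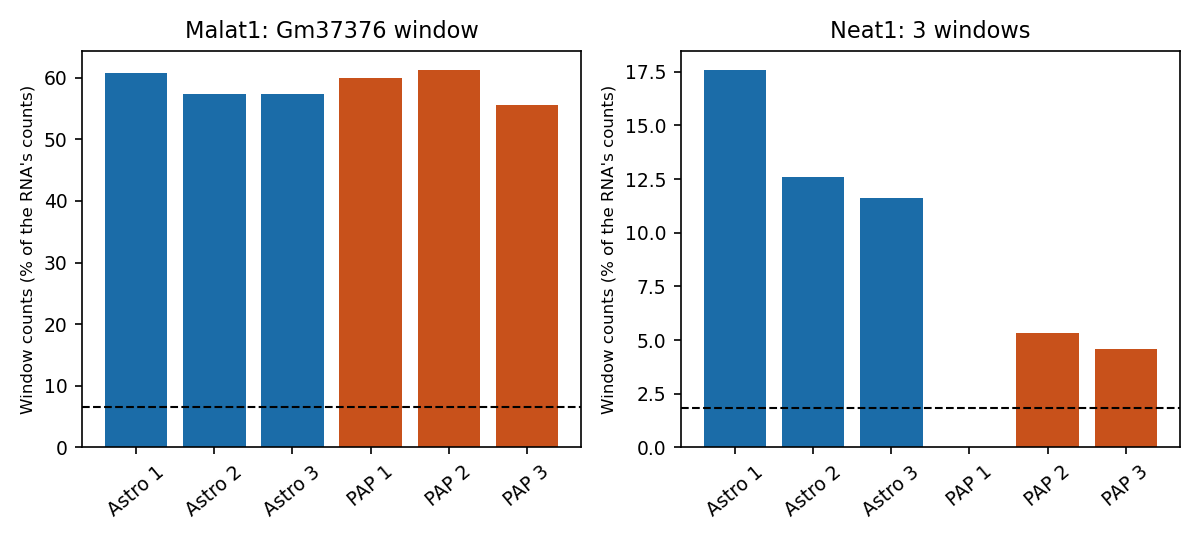
Counts of gene models nested in Malat1 (left, Gm37376) and near the 5′ start of Neat1 (right, 3 models together), as a percent of the counts of Malat1 or Neat1 in each library. Dashed lines give the percent of the RNA's length that the windows cover, 6.49% and 1.85%, the latter of the long form of Neat1. The Malat1 share is between 55.6% and 61.3% in all libraries, and the Neat1 share is lower in PAP.

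Inside Meg3 lies Mir1906-1, a microRNA gene of 80 bases at chr12:109544541-109544620. RefSeq (GRCm38.p6) gives its mature form, printed with the seed (bases 2 to 8) in capitals because it is the 1 microRNA gene within a member that was called higher.
mmu-miR-1906: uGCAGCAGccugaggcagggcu
Mir1906-1 held 4, 4 and 5 counts in Astro and 19, 21 and 33 in PAP, 1.02% to 2.55% of the Meg3 counts, with a log2 fold change of 5.41 ± 0.76 (SE, edgeR adjusted p = 0.0168; 0.206 with the block). Reads over a microRNA gene inside a longer exon count the host RNA as well as the hairpin, so they are no measure of the mature microRNA. Gm26906, a lincRNA opposite the 3′ part of Meg3 that shares 1228 bases with it, held 6, 7 and 5 counts in Astro and 46, 32 and 136 in PAP (6.38 ± 1.05, SE, edgeR adjusted p = 0.0208; 0.206 with the block). Both Mir1906-1 and Gm26906 passed the low-count filter through PAP, so their calls add nothing to that of Meg3. Of 8 snoRNA models inside Rian exons 2 had any counts, AF357425 and Gm23474, and of 4 microRNA models inside Mirg exons 1 had, Mir485 with 1 count in all. The 4 models inside Kcnq1ot1 had 0 counts in all libraries. The remaining small models in member exons, such as Gm27694 in Malat1, Gm27998 in Miat, Mir770 in Meg3 and Gm25187 in Snhg11, held at most 7 counts in any library.

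Related genes gave a mixed picture beside the members. Of 10 tested other nuclear long noncoding RNAs, 0 rose and 1 fell, with a median log2 fold change of 0.04. Xist, the X-inactivation RNA, and its antisense Tsix, named here after their values were seen, had estimates as large as the members' but did not pass (5.33 ± 1.55, edgeR adjusted p = 0.0557, for Xist and 5.22 for Tsix), and they entered the test through PAP. Without strand the reads of the pair cannot be told apart. Tug1, a widely expressed lincRNA, stood at 175, 117 and 153 CPM in Astro and at 72.6, 280 and 128 in PAP (0.11 ± 0.55, SE, edgeR adjusted p = 0.929). Pantr1 stood at 854, 899 and 704 CPM in Astro and at 48.2, 208 and 521 in PAP (edgeR adjusted p = 0.211). Mir9-3hg, the host of a miR-9 gene, fell from 35.4 to 63.9 CPM in Astro to 0 counts in every PAP library, at least 35.5-fold lower against the limit of 3 counts per library; it passed the low-count filter through Astro alone. Of 9 tested cytoplasmic long noncoding RNAs and snoRNA hosts, 4 rose and 0 fell, with a median of 1.86. They were Gas5 (1.86 ± 0.26, SE, edgeR adjusted p = 0.0168), a snoRNA host, and Snhg8, Zfas1 and Epb41l4aos, with log2 fold changes of 3.63, 3.59 and 3.32, while Snhg3 stood at 28.6 to 41.6 CPM in Astro and 47.7 to 74.3 in PAP and did not pass (0.88 ± 0.55).

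Of 9 small structured RNAs 5 entered the test, and all 5 were called higher in PAP. That count says little, since 4 of them, Rny3, Rn7s1, Rn7s2 and Vaultrc5, had at most 3 counts in each Astro library and passed the low-count filter through PAP. Rpph1, the RNA of ribonuclease P, the enzyme that cuts the 3′ ends of Malat1 and Neat1, stood at 3.15, 2.57 and 5.05 CPM in Astro and at 212, 103 and 187 CPM in PAP (5.54 ± 0.62, SE, edgeR adjusted p = 0.00782; 0.0597 with the block). Among 16 messenger RNAs known to keep detained introns in the nucleus, 2 rose and 0 fell, with a median of 1.23. They were Luc7l3 (2.42 ± 0.63, edgeR adjusted p = 0.0391) and Rsrp1 (2.19 ± 0.47, edgeR adjusted p = 0.0219), while Rbm39 and Ddx5, the highest by mean log2 CPM, gave -0.21 and 0.92 and did not pass. Of 20 mRNAs for proteins of nuclear bodies or partners of these RNAs, 2 rose and 0 fell, with a median of 0.27. These were Srsf3 (1.25 ± 0.33) and Srrm1 (1.98 ± 0.35), and Qk gave -0.38 ± 0.57. None of the genes of these 5 lists passed with the block.

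Of 14 coding genes of the imprinted domains 7 were tested, and 0 rose and 3 fell, with a median of -0.51 against -0.53 for all tested genes. Of the 3, Dlk1 and Cdkn1c passed the low-count filter through Astro alone, so the count says little. Dlk1, the paternally expressed gene of the Meg3 domain, was at 1.31 to 3.15 CPM in Astro and had 0 counts in every PAP library, at least 1.74-fold lower. Cdkn1c, a cell cycle inhibitor in the Kcnq1 domain, fell from 6.84, 46.6 and 20.6 CPM to 0 counts, at least 18.3-fold lower. Cd81 fell as well, from 946 to 1850 CPM to 311 to 582 (-1.69 ± 0.38, SE, edgeR adjusted p = 0.0242), and Nap1l4 did not pass (-0.51 ± 0.44). None of the 3 passed with the block.

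**Figure D5:**
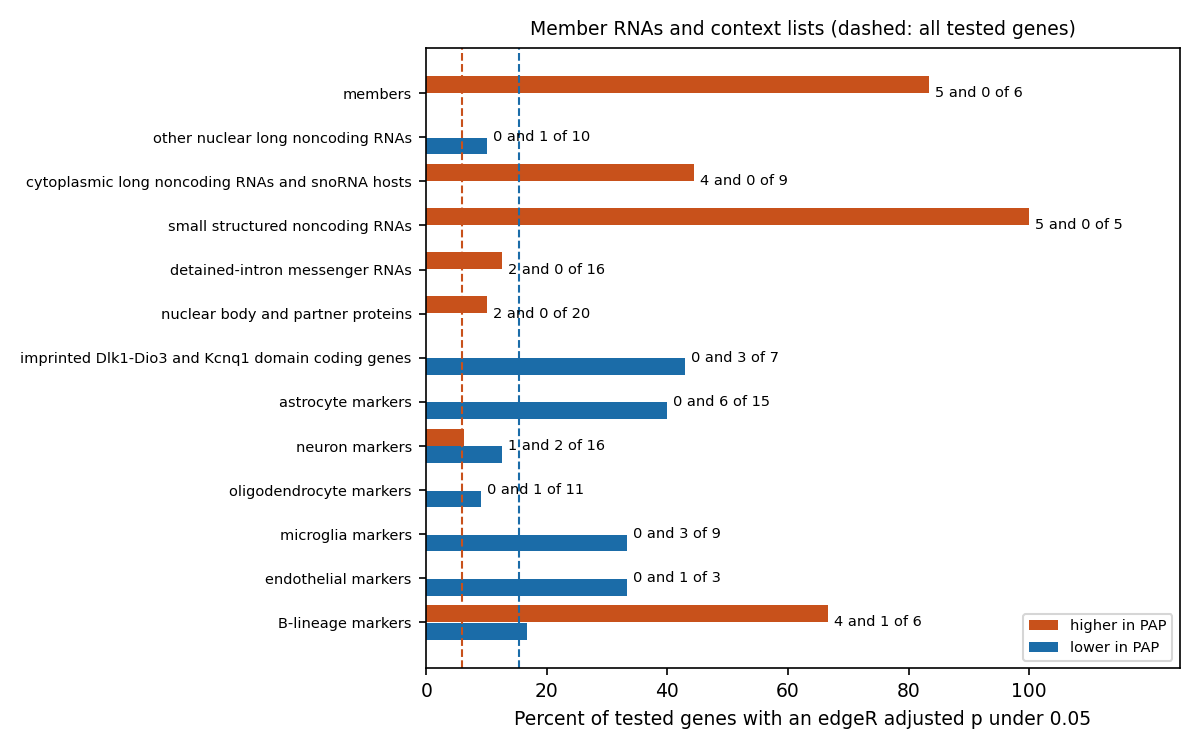
Percent of the tested genes of each list that rose (orange) or fell (blue) in PAP by the edgeR test, with the numbers beside the bars (higher and lower of tested); dashed lines give all tested genes, 5.92% and 15.4%. Bars are 5 and 0 of 6 for the members; of the 5 small structured RNAs tested, 4 passed the low-count filter through PAP alone, and some genes of the other nuclear, imprinted, oligodendrocyte, microglia, endothelial and B-lineage lists through 1 group alone, so those bars are not comparable.

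Markers of cell types were read beside the members. With the animal as a block, none of the astrocyte, neuron, oligodendrocyte, microglia and endothelial markers passed, so each rise or fall given for them holds for the fit of group alone. The labelled astrocyte identity was matched by high astrocyte markers in Astro, at 25300 to 34800 CPM summed over 15 genes. In PAP these markers summed to 4230, 9020 and 14400 CPM, in animal 1 below the B-lineage markers (5750 CPM over 8 genes). Of the 15, 6 fell and 0 rose, 0 were at 0 counts in all PAP libraries, and the median was -1.55. Among them Gfap gave -1.61 ± 0.55 (edgeR adjusted p = 0.0917), and Aldoc fell by 2.05 on the log2 scale (edgeR adjusted p = 0.0398). Neuron markers, which matter here because Meg3, Miat, Rian, Mirg and Snhg11 are best known from neurons, summed to 1250, 1630 and 2060 CPM in Astro and 506, 1220 and 1020 in PAP. Of 16, 1 rose (Syt1, 1.40 ± 0.37) and 2 fell (Snap25, -2.22 ± 0.54, and Nrgn, -1.91 ± 0.53), 0 were at 0 counts in all PAP libraries, and the median was -0.60. Snap25 is the highest of them in Astro, and the part of neuronal RNA in the members' values was not tested.

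Oligodendrocyte markers summed to 829 to 913 CPM in Astro and 609 to 1060 in PAP, and 1 of 11, Ugt8a, which passed the filter through Astro alone, fell, while Mbp gave 0.53 ± 0.55 and did not pass (median 0.74; the order relative to all tested genes turned with the block). Microglia markers summed to 46.3 to 97.5 CPM in Astro and 32.3 to 96.7 in PAP, with Cx3cr1, P2ry12, Tmem119, Aif1 and Fcrls at 0 counts in all PAP libraries; 3 of 9 tested fell (Cx3cr1, P2ry12 and Tmem119, which passed the low-count filter through Astro alone), C1qb did not pass, and the median was -1.47, or -0.73 with genes at 0 held at their bound. Endothelial markers summed to 13.3 to 29.7 CPM in Astro and 15.4 to 24.4 in PAP, with Cldn5, Cdh5, Slco1a4, Itm2a, Esam and Emcn at 0 counts in all PAP libraries; of 3 tested Itm2a, which also passed the filter through Astro alone, fell and Ly6c1 did not pass (2.94 ± 0.99), with a median of -0.39, which turned relative to all tested genes in most alternatives. B-lineage markers moved with the members: they summed to 39.4 to 63.2 CPM in Astro and to 5750, 3540 and 2730 CPM in PAP. Of 6 tested, Jchain, Mzb1 and Igkc rose, also with the block. In the fit of group alone Ms4a1 rose and Ighm fell, but Ms4a1 passed the low-count filter through PAP and Ighm, at 0 counts in PAP, through Astro, while Cd79a too was at 0 counts in all PAP libraries (median 6.15). Jchain stood at 10.9 to 20.3 CPM in Astro and at 2500, 1200 and 1090 in PAP. The part of these transcripts in the members' rise was not tested.

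Over the 6 libraries, the members' mean profile of log2 CPM, each RNA centred on its own mean, ran at -1.58, -1.92 and -2.16 in Astro and 1.98, 2.47 and 1.20 in PAP. Malat1 lay closest to it, with a root mean square difference of 0.33, followed by Neat1 at 0.63 and Meg3 at 0.71, and Rian and Kcnq1ot1 lay farthest, both at 1.85. Among 7382 other genes with a mean log2 level of at least that of 10 CPM, the nearest profiles were those of Mir703 (0.11), Rpl37rt (0.19), Neil1 (0.21), Pafah1b3 (0.21) and Rpl23 (0.22). Rpl23, a protein of the large ribosomal subunit, stood at 122, 112 and 103 CPM in Astro and at 1840, 1700 and 1010 in PAP (log2 fold change 3.76). Since these 5 were picked for their likeness over the same libraries, their difference between the groups follows from the choice and is a description. Mir703 is annotated as a microRNA gene, with a log2 fold change of 4.13. Rpl37rt is annotated as a transcribed processed pseudogene, whose reads may be split with other copies. Neil1 encodes a DNA glycosylase and Pafah1b3 a subunit of a platelet-activating factor acetylhydrolase, with log2 fold changes of 3.64 and 3.82.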

How the data were processed

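Per the submitters' processing notes, bcl2fastq 2.18.0.12, Trim Galore 0.4.1, STAR 2.5.2b, SAMtools and HTSeq 0.5.3 were used with the build mm10; annotation release, counting mode and strand setting are not given in the sources used here. Per the file headers, the authors deposited a gene identifier and a count in each of 48 files; the deposited counts are whole numbers without scaling. Per the labels' protocols, RNA was amplified with a SMART-Seq v4 kit and libraries were made with Nextera XT; no molecular identifiers are named, so intervals and limits cover counting error only.

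Technical replicates, 8 for each library, were summed to 6 libraries. Symbols, coordinates and transcripts came from GENCODE M21 on GRCm38, which held 47224 of the 47643 identifiers (99.12%, with 99.86% of counts). The test was the quasi-likelihood test of edgeR 4.0.16 (R 4.3.3) on genes kept by filterByExpr at a minimum count of 10, with TMM factors, a model of group alone, Benjamini-Hochberg adjusted p-values and the threshold 0.05. For shares of counts the test was an exact permutation test, two-sided, with 20 relabellings. The pairing comes from the animal numbers in the labels, since each animal gave 1 library of each compartment; deviations of same-animal libraries from their group means correlated across genes at 0.033, 0.018 and -0.027, and those of different animals at -0.054 to 0.033. The blocked fit is given beside each member and, for the lists, as the calls that it leaves. Profiles were compared as log2(CPM + 0.5). The edgeR script was tested on simulated data.

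The members and the 12 context lists were chosen with earlier results of these data known, so no list is independent evidence. Of 160 listed genes 4 (Rmst, Norad, Cdr1os and Oip5os1) matched no identifier by symbol. Named are all members, the genes overlapping them, in each list the 2 tested genes with the highest mean log2 CPM and each called gene where a list had 5 or fewer called, and the 5 nearest profiles; a few of the list genes so named are not reported here. Alternatives covered scaling, low-count filters, the block, DESeq2 1.42.0, limma 3.58.1 voom with a variance weight per group, technical replicates 1 to 4 and 5 to 8, equal depth, a threshold of 0.01 and each library left out.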

Additional observations from a re-analysis of the deposited data

How the results depend on the processing

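Each tested member was higher in PAP under each alternative that could fit it. The median of all tested genes moved by 0.15 on the log2 scale with library size alone in place of TMM factors, and by 0.07 with DESeq2 size factors or upper-quartile factors; relative to that median the 6 tested members lay 3.66 to 6.33 higher with library size alone and 3.66 to 6.28 with TMM factors. The number of members that rose was 5 with every other scaling, filter, voom, both series of technical replicates and equal depth, and 6 with DESeq2. With the replicate block it was 3, and at a threshold of 0.01 it was 1. Leaving out each library in turn gave 1 to 7, and 0 fell in each of these fits; the 7, without PAP animal 3, include Mirg and Kcnq1ot1, which then pass the filter through the PAP libraries alone, so that they are no added support. Over the same fits, log2 fold changes ran from 3.50 to 4.20 for Malat1, 2.88 to 3.34 for Neat1, 4.15 to 4.97 for Miat, 4.83 to 5.43 for Meg3, 1.11 to 4.24 for Rian and 5.32 to 6.50 for Snhg11. The difference in the members' share of counts was 0.426 to 0.637 percentage points when each library was left out, and 0.176 without Malat1.

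Counts over all genes moved more, and the cause was not tested. The numbers higher and lower in PAP, 865 and 2250, became 128 and 5 with the replicate block, 1685 and 3456 with DESeq2, and 152 and 11 at a threshold of 0.01. Without a low-count filter 571 were higher and 1549 lower, with a mean of at least 100 counts 588 and 826, and at equal depth 718 and 1012, where fewer genes were tested. Leaving out each library in turn gave 114 to 1251 higher and 1 to 3335 lower. Minus the median of all tested genes, the median of the other nuclear long noncoding RNAs turned to -1.18 with a mean of at least 100 counts and to -0.92 at equal depth, and that of the microglia markers to 0.24 in technical replicates 1 to 4 and 0.32 without Astro animal 1, with a range of -1.72 to 0.32 when each library was left out. On the same scale the oligodendrocyte markers went from 1.26 to -0.66 with the replicate block, -0.81 with voom and -0.61 without PAP animal 2. The endothelial markers, 3 genes, went from 0.14 to between -6.94 and 1.77, and the neuron markers and imprinted coding genes, at -0.07 and 0.02, took either sign, so no direction relative to all genes is given for these lists. Mirg and Kcnq1ot1 passed the filter in too few fits to be followed, and PAP depth limits both: 1 PAP count stands for more CPM than 1 Astro count by the ratio of totals.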
